A study of Homo sapiens with 2 samples.

Results

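The genes described here encode the proteins of the mitochondrial ribosome and of the machines that bring proteins into mitochondria. They were taken as all Ensembl IDs with a value in either library that map in GENCODE 29 to a protein-coding symbol starting with MRPL, MRPS, TIMM or TOMM. This gave 51 members of 16145 IDs, namely 20 MRPL genes (large ribosomal subunit), 19 MRPS genes (small subunit), 9 TIMM genes (inner membrane import) and 3 TOMM genes (outer membrane import). GENCODE 29 annotates 104 such genes, and the other 53 are not analysed here. No measured change was used in the choice.

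The RNA came from HAL-01 cells, a human line labelled as pre-B acute lymphoblastic leukaemia, in 2 RNA-seq libraries. One is labelled Control, and what these cells were given, if anything, is not stated in the labels. The other is labelled AG, from cells kept for 24 h with 1,5-AG at 0.8 mM, which is 1,5-anhydroglucitol, a polyol related to glucose. Each group thus has 1 library, so no difference below could be checked against replicates and no p-values appear. Values are FPKM, that is fragments per kilobase of gene, scaled to the total of the library. The steps between low values imply that Control holds 16240451 fragments and AG 14857372. The markers with a value did not bear out the labelled cell type. Of a 13-gene pre-B list, 7 genes had a value in Control, summing to 2.57 FPKM, and 5 in AG, summing to 2.89. Only 3 had a value in both, so the sums cover different genes, and a missing value is not a 0. The 7 listed genes of a 12-gene myeloid list summed to 952 (Control) and 497 FPKM (AG). The cells are named by their label here. The highest myeloid value was 743 FPKM in Control and 194 in AG, and 4 of the 7 genes were higher in AG and 3 lower (median log2 ratio 0.28). Fewer cells of a type and less RNA per cell cannot be told apart in such bulk samples. The part of the myeloid genes in the results below was not tested.

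The mitochondrial ribosome translates the few mRNAs that the mitochondrial genome encodes, all of them for subunits of the respiratory chain and ATP synthase. Its ribosomal RNAs are made in the organelle, but its proteins are encoded in the nucleus, made in the cytosol and imported. Precursors pass the outer membrane through the TOM complex, and then enter the matrix through TIM23 or are inserted into the inner membrane by TIM22, to which the small TIM chaperones escort them. Most of the nuclear genes concerned are expressed in every cell type, and ETS factors such as GABPA, the factor NRF1 and YY1 are known regulators of many of them.

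Promoters of the members were searched for the letters that those factors are known for, because a short promoter sequence is a feature that the choice of genes did not use. RefSeq windows from 250 bases before to 50 after each start were found for 47 of the 51 members and for 14896 protein-coding genes, of which 3601 were expressed here (at least 1 FPKM on average over both libraries). Both strands were searched. The ETS letters CCGGAAG were in 18 of the 47 windows (38.3%), against 21.9% of those of expressed genes and 14.4% of all. The YY1 letters AAGATGGCG were in 11 (23.4%), against 4.36% and 2.83%. The NRF1 palindrome, the capitals of MRPL17 below, was in 1 (2.13%, against 2.44% and 1.74%), the SP1 letters GGGCGG in 26 (55.3%, against 71.2% and 59.5%) and the TATA box letters TATAAA in 1 (2.13%, against 4.78% and 9.37%). At least 1 of the ETS, YY1 and NRF1 strings was in 27 windows (57.4%), against 27.02% and 17.9%. ETS letters were in 6 of 19 MRPL, 8 of 17 MRPS, 3 of 8 TIMM and 1 of 3 TOMM windows, and YY1 letters in 4, 5, 1 and 1. These are matches of letters, given with no test, and do not show binding.

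**Figure D1:**
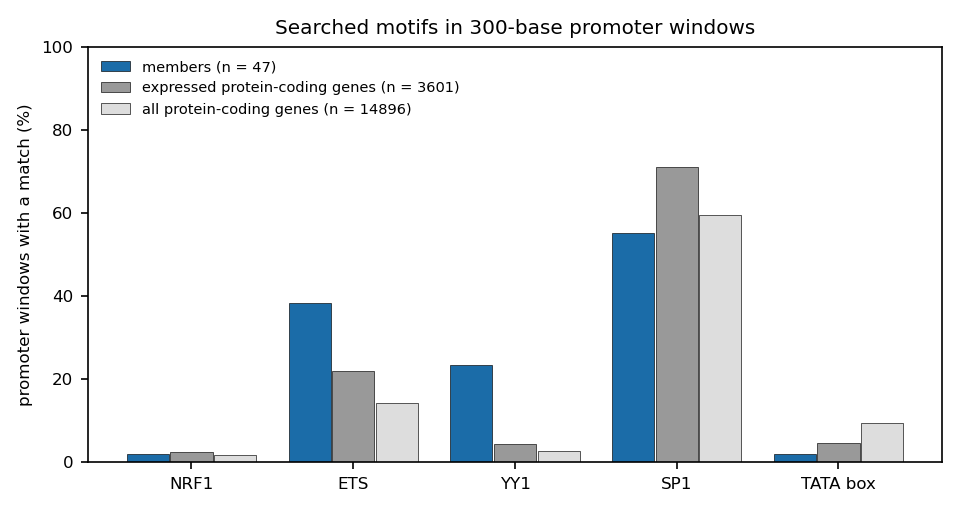
Share of 300-base promoter windows (y axis, %) with a match to each searched motif, for the 47 members matched in RefSeq, 3601 expressed protein-coding genes and all 14896 protein-coding genes. The members' bars stand above both others for ETS (38.3%) and YY1 (23.4%), and below both for SP1 and the TATA box.

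The stretches below show the ETS and NRF1 matches in capitals, from GRCh38.p14, 5′ to 3′ on the gene's strand and outside annotated exons. TIMMDC1 (chr3:119498417-119498482, plus strand) and MRPS22 (chr3:139343894-139343953, plus) each hold 2 matches in opposite orientation, next to each other in MRPS22. MRPS18A (chr6:43687792-43687851, minus), MRPL3 (chr3:131502984-131503043, minus) and MRPS10 (chr6:42217866-42217925, minus) hold 1 each, and MRPL17 (chr11:6683402-6683461, minus) holds the only NRF1 match.
TIMMDC1: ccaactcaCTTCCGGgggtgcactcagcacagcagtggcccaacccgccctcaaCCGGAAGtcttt
MRPS22: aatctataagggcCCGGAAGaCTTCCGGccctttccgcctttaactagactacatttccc
MRPS18A: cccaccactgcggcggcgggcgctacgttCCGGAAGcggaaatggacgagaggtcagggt
MRPL3: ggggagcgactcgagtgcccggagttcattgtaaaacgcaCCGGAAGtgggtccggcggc
MRPS10: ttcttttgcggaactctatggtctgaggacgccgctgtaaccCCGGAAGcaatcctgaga
MRPL17: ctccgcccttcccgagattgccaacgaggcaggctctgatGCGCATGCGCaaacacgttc

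The YY1 letters lay elsewhere. In 9 of the 11 members they began between base 9 and base 36 after the RefSeq start, and in the other 2, MRPL52 and TOMM40L, before it. The 30-base sites below overlap annotated exons, unlike the ETS and NRF1 stretches above. They have the match in capitals, from MRPL52 (chr14:22829779-22829808, plus), TOMM40L (chr1:161225997-161226026, plus), MRPS30 (chr5:44808950-44808979, plus) and TIMM50 (chr19:39480841-39480870, plus), 1 or more from each of the 4 gene families.
MRPL52: acgatgacccAAGATGGCGgagccgtgatt
TOMM40L: gccagattcaAAGATGGCGcttacggccac
MRPS30: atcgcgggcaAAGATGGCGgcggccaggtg
TIMM50: gcgtcagcgcAAGATGGCGgcctcggcagc

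Many members also start next to another gene. A protein-coding gene on the opposite strand started within 1000 bp of 21 of the 51 members (41.2%), against 18.9% of 4442 expressed protein-coding genes and 13.0% of all 19951, and in 11 members the starts were within 100 bp. MRPL46 and MRPS11, a large and a small subunit protein, are such a pair on chromosome 15, with starts 34 bp apart. MRPS11 had 5.11 (Control) and 5.43 FPKM (AG), and MRPL46 had 0.712 and 0.568. The gap depended on gene length, since per kilobase of the longest coding transcript MRPS11 had 7.89 and 8.39 and MRPL46 had 4.47 and 3.57. Exons of MRPL46 also overlap those of another protein-coding gene on the same strand, so its level is uncertain. TIMM8B, a small TIM chaperone, starts 25 bp from SDHD, a subunit of respiratory complex II, with 46.4 and 44.1 FPKM against 17.7 and 20.2 for SDHD. MRPL52 starts 59 bp from SLC7A7, an amino acid transporter, with 14.2 and 13.5 FPKM against 3.68 and 6.18. These pairs were chosen after their values were seen. Starts in these counts are the outermost GENCODE starts. That of MRPS22, 462 bp from the start of PRR23A, is chr3:139005806, and not at the RefSeq promoter printed above (chr3:139343894-139343953). Shares over all genes were not computed for starts within 100 bp or for the exon overlaps that follow. Exons of 28 of the 51 members overlap those of another gene, in 22 on the opposite strand. The library kit was stranded, but the strand setting of the count is not given. Whether reads of genes overlapping on opposite strands were kept apart is thus not known. Reads from exons shared on the same strand cannot be told apart.

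Of the 51 members, 48 had a value in both libraries and 45 of these averaged at least 1 FPKM, the filter used for comparisons (19 MRPL, 17 MRPS, 7 TIMM and 2 TOMM). The 3 below it were MRPL46, TIMM22 and TOMM20L, and the member just above it was MRPL45. Levels spread over 154-fold in Control, from 0.976 FPKM for MRPL45 to 151 for MRPL37, and over 249-fold between the same genes per kilobase of the longest coding transcript. The other 3 members, MRPS18B, MRPS24 and TIMM17B, had a value in AG only and were not compared. A value in 1 library only was common in these data. Of all 16145 IDs, 13342 had a value in Control, 13351 in AG and 10548 in both.

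**Figure D2:**
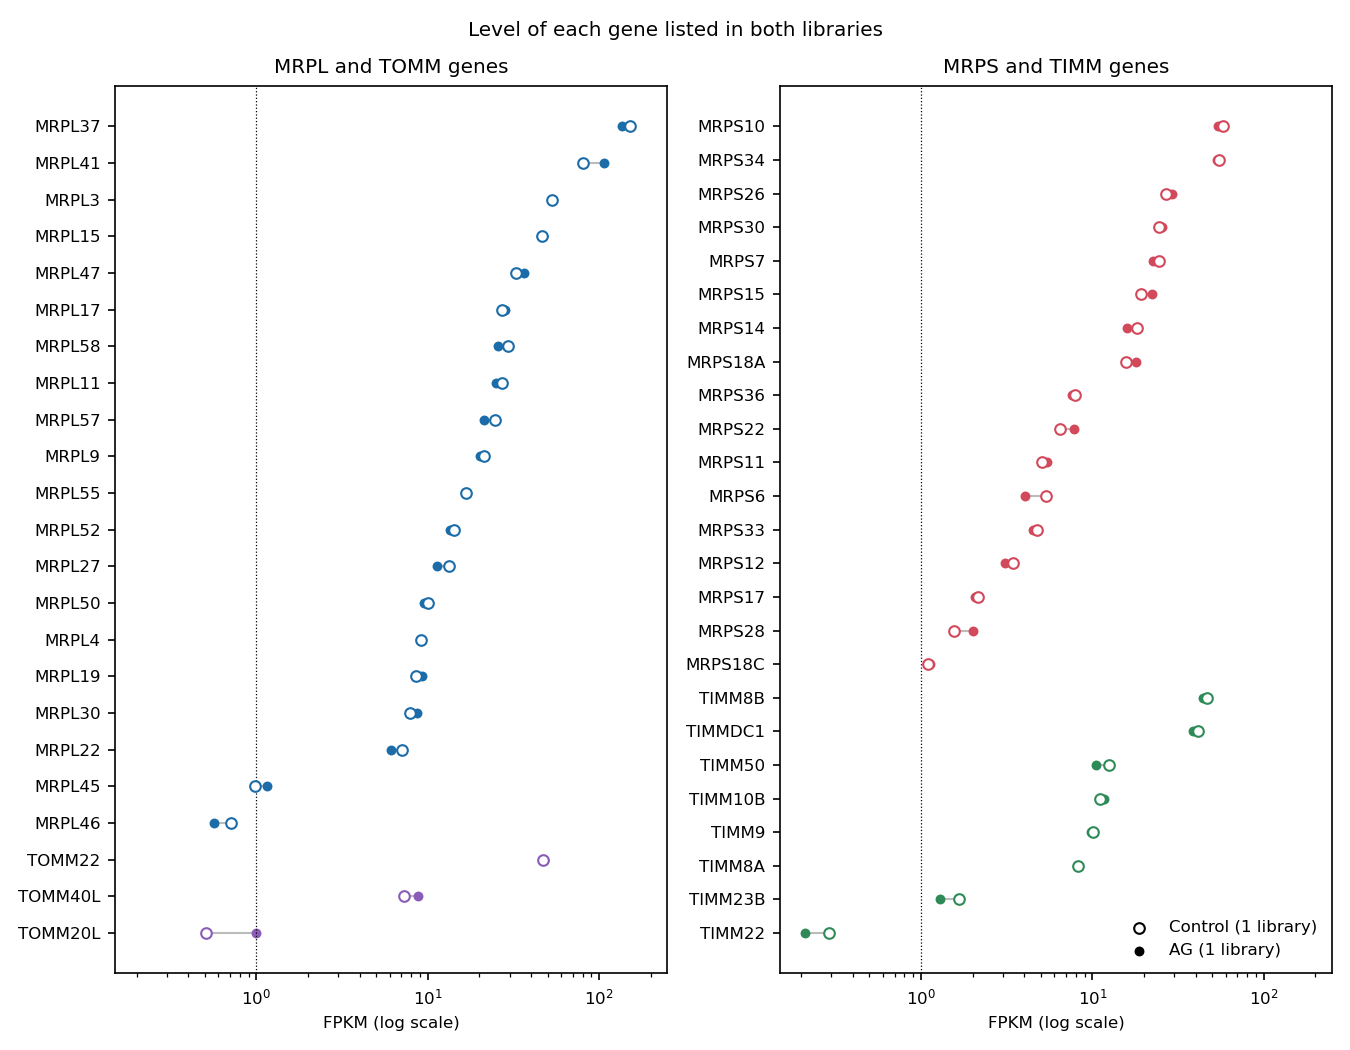
FPKM (x axis, log scale) of the 48 members with a value in both libraries, with an open circle for Control and a filled circle for AG, 1 library each, and a dotted line at 1 FPKM. The open and filled circles of most genes touch, while levels between genes spread from 0.212 FPKM for TIMM22 in AG to 151 for MRPL37 in Control.

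In the large subunit, MRPL37, a protein with no bacterial counterpart, was the most abundant member with 151 (Control) and 136 FPKM (AG). MRPL41, another mitochondrial addition, followed with 80.6 and 106, and MRPL3, a counterpart of a bacterial ribosomal protein, had 52.8 and 53.2. By deposited FPKM the same 3 genes led in both libraries. At the low end were MRPL45 with 0.976 and 1.15 FPKM, MRPL22 with 7.11 and 6.12, and MRPL30 with 7.89 and 8.61. MRPL45 rests on 27 and 29 fragments and is uncertain, since its pseudogene MRPL45P2 was listed at 1.26 and 1.76 FPKM. The median of the 19 MRPL genes was 21.3 (Control) and 20.04 FPKM (AG).

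In the small subunit, MRPS10, which has a bacterial counterpart, had 57.4 (Control) and 53.8 FPKM (AG). MRPS34, which has none, had 54.8 and 53.1, and MRPS26 had 26.7 and 28.9. The lowest were MRPS18C with 1.10 and 1.13 FPKM, MRPS28 with 1.56 and 2.0003, and MRPS17 with 2.14 and 2.05. Exons of MRPS28 and of MRPS17 overlap those of other genes on the same strand, so the levels of both are uncertain. The median of the 17 MRPS genes was 7.90 (Control) and 7.78 FPKM (AG), so the MRPL median was 2.70-fold higher in Control and 2.58-fold higher in AG. That gap depended on the gene length in the denominator. With the fragments of each gene divided by its longest coding transcript instead of the full gene length behind the deposited FPKM, the MRPL median was 1.28-fold higher in Control and 1.38-fold higher in AG. MRPS30, for example, had 24.5 FPKM in Control as deposited and 90.2 per kilobase of coding transcript, and MRPS6 had 5.37 and 23.2.

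**Figure D3:**
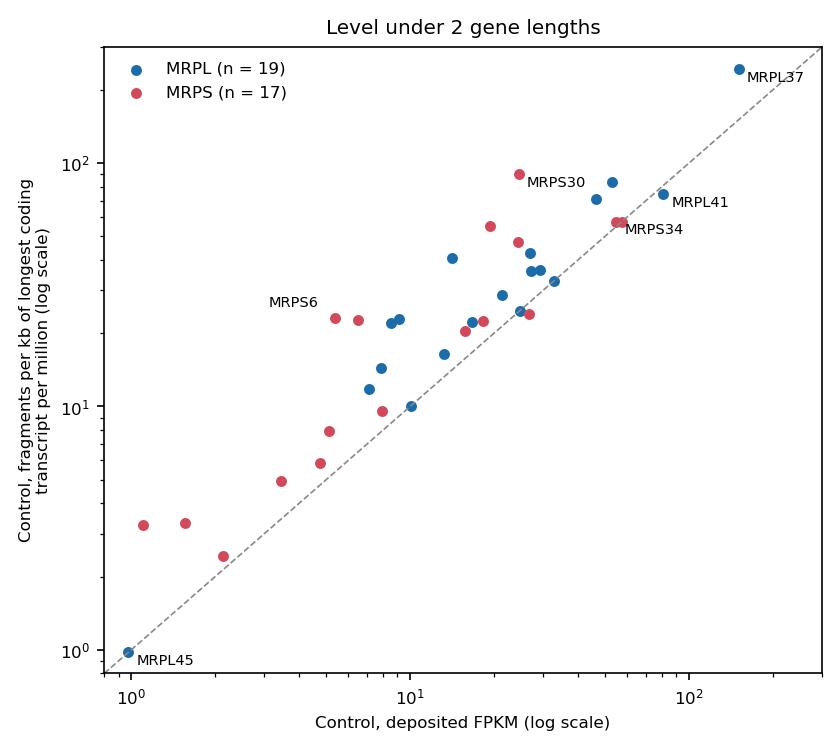
Control level of the 19 MRPL and 17 MRPS genes by the deposited FPKM (x axis, log scale) and by fragments per kilobase of the longest coding transcript, scaled to the library total (y axis, log scale), with a dashed line where both are equal. MRPS30 and MRPS6 stand far above the line (24.5 against 90.2 and 5.37 against 23.2), while MRPL41 and MRPL45 lie on or near it.

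In the inner membrane machines, TIMM8B had 46.4 (Control) and 44.1 FPKM (AG). TIMMDC1, which carries the TIMM name but acts in the assembly of respiratory complex I, had 41.5 and 38.8. TIMM50, the receptor of the TIM23 channel for precursors with a presequence, had 12.6 and 10.5. Of the other small TIM chaperones, TIMM10B had 11.001 and 11.6, TIMM9 had 10.045 and 9.84, and TIMM8A had 8.19 and 8.19. TIMM23B, a near-identical copy of the channel gene TIMM23, had 1.66 and 1.28, and its reads cannot be told from those of TIMM23, which is not analysed here. TIMM22, the channel for carrier proteins, had 0.290 and 0.212 FPKM on 15 and 10 fragments.

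In the outer membrane machine, TOMM22, the central receptor and organiser of the TOM complex, had 47.3 (Control) and 47.6 FPKM (AG). TOMM40L, a paralogue of the channel protein TOMM40, had 7.26 and 8.79. TOMM20L, a paralogue of the receptor TOMM20, had 0.506 and 0.995 FPKM on 5 and 9 fragments, a ratio of 1.97 with a 95% counting interval of 0.592 to 7.47. TOMM20L also overlaps exons of TIMM9 on the opposite strand. TOMM20, TOMM40, TOMM70 and the small subunits TOMM5, TOMM6 and TOMM7 are not analysed here, so the 3 listed genes do not stand for the TOM complex.

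The design asks how AG differed from Control. The difference was taken as log2((AG FPKM + 1)/(Control FPKM + 1)), in which the added 1 FPKM understates the change of low genes. None of the 45 expressed members was at least 1.5-fold higher in AG (3.60% of 5528 expressed genes were) and none was at least 1.5-fold lower (3.33% were). The members are all protein-coding, and of the 4442 expressed protein-coding genes 109 were higher and 59 lower, so fewer than of all genes. All 45 thus lay within 1.5-fold, against 93.1% of all expressed genes, and none was 2-fold higher (1.18%) or lower (0.886%). With the added 1 FPKM, the higher value was less than 25% above the lower in 43 of the 45 (95.6%). This held for 81.5% of all expressed genes, 87.1% of the protein-coding ones and 88.2% of genes averaging at least 5 FPKM. The exceptions among the members were MRPL41, higher in AG (8.70% of expressed genes were, by this smaller threshold), and MRPS6, lower (9.80%). By the FPKM alone, with nothing added, the count was 41 of 45, against 73.9% of all, and the low genes MRPS28 (higher) and TIMM23B (lower) also differed by more than 25%. The members ran from -0.34 for MRPS6 to 0.39 for MRPL41 on the log2 scale. Their median was -0.03, as was that of all expressed genes, and 19 of 45 (42.2%) were above 0, against 43.2% of all.

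Counting error alone was smaller than some of these differences. Whole fragment numbers were recovered for all 45 expressed members, from 27 to 6239 in Control, and gave each FPKM ratio an exact 95% Clopper-Pearson interval that covers counting error only and not the spread between cultures. The interval lay above 1 for 6 members (16.9% of 5463 expressed genes with recovered fragments had this), below 1 for 8 (22.9%) and included 1 for 31. A total of 14 of 45 members thus had an interval without 1, against 39.8% of all. With the smallest whole fragment pair in place of the pair at the length nearest the annotated one, these counts were 4 above and 7 below, without MRPL47, TOMM40L and MRPL58. The 6 members with under 100 fragments in either library were MRPL45, MRPS12, MRPS17, MRPS18C, MRPS28 and TIMM23B, and the intervals of all 6 included 1.

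**Figure D4:**
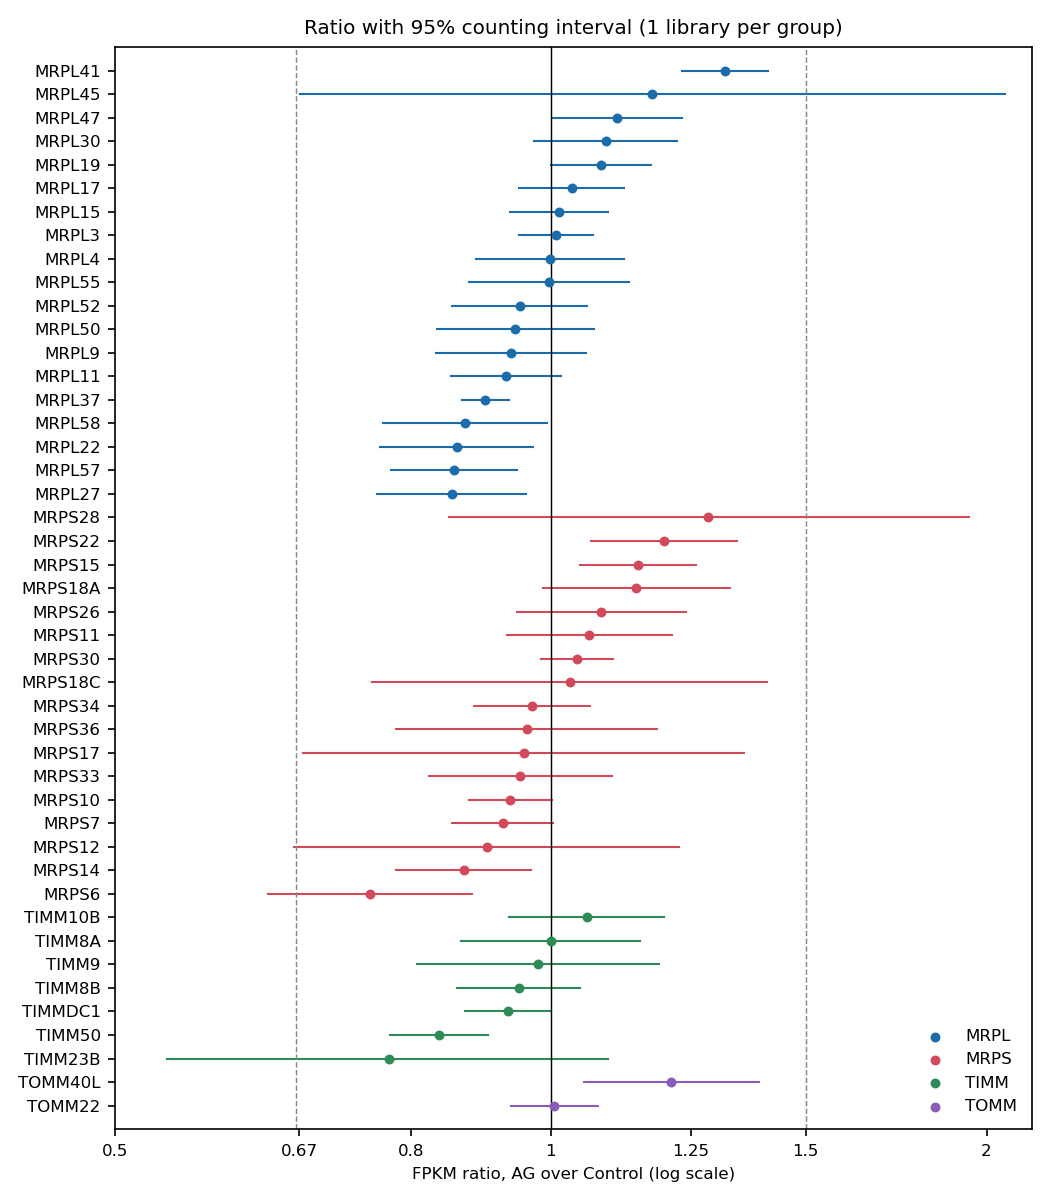
FPKM ratio of AG over Control (x axis, log scale) of the 45 expressed members, with bars for the 95% counting interval, a solid line at 1 and dashed lines at 1.5-fold lower and higher, for 1 library per group. All points lie between the dashed lines, from 0.750 for MRPS6 to 1.32 for MRPL41, and most bars cross 1.

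MRPL41 stood highest. It had 80.6 (Control) and 106 FPKM (AG), on 1524 and 1838 fragments, a ratio of 1.32 (95% counting interval 1.23 to 1.41). Even on the smallest pair that fits its values, 762 and 919 fragments, the interval was 1.20 to 1.45. The gene (ENSG00000182154) lies at chr9:137551199-137552555 on the plus strand of GRCh38, and has no named pseudogene and no exon shared with another gene. The other MRPL genes with an interval above 1 were MRPL47, with 32.8 and 36.5 FPKM and a ratio of 1.11 (1.002 to 1.23), and MRPL19, with 8.55 and 9.26 and a ratio of 1.08 (1.0005 to 1.17), both just clear of 1. The bounds of MRPL47 on its smallest pair were 0.901 to 1.37. The MRPL19 pair implied a length of 8947 bases against 4601 annotated, so its fragment numbers and interval are uncertain.

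Of the large subunit genes, 5 had an interval below 1. MRPL37 (ENSG00000116221, chr1:54184041-54225464, plus strand) had 151 and 136 FPKM, a ratio of 0.901 (0.868 to 0.935) on 6239 and 5143 fragments. MRPL27, which has a bacterial counterpart, had 13.2 and 11.3, a ratio of 0.854 (0.759 to 0.961). MRPL57 had 24.8 and 21.2, a ratio of 0.857 (0.775 to 0.947), and has 5 named pseudogenes. MRPL22 had a ratio of 0.861 (0.762 to 0.972). MRPL58, a peptidyl-tRNA hydrolase built into the large subunit, had 29.2 and 25.5, a ratio of 0.873 (0.766 to 0.994), and on its smallest pair the interval was 0.725 to 1.05 and included 1.

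MRPS6 stood lowest. A counterpart of a bacterial ribosomal protein, it had 5.37 (Control) and 4.03 FPKM (AG), on 373 and 256 fragments, a ratio of 0.750 (0.637 to 0.882). The gene (ENSG00000243927, chr21:34073224-34143034, plus strand) shares exons on the same strand with SLC5A3, a myo-inositol transporter, which had 5.95 and 5.91 FPKM, so the assignment of its reads is uncertain. MRPS14 was also lower, with 18.3 and 15.9 FPKM and a ratio of 0.870 (0.781 to 0.969), while MRPS12, with 3.44 and 3.11, had an interval that included 1. The higher ones were MRPS22, with 6.50 and 7.78 FPKM and a ratio of 1.197 (1.07 to 1.34), and MRPS15, with 19.3 and 22.2 and a ratio of 1.15 (1.05 to 1.26). MRPS28 had the largest log2 ratio of the small subunit genes, 0.23, but on 46 and 54 fragments (ratio 1.28, 0.850 to 1.94). SLC5A3 was named after its values were seen.

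The median log2 ratio was 0.00 for the 19 MRPL genes (8 above 0) and -0.04 for the 17 MRPS genes (8 above 0), a difference between the large and the small subunit of 0.04 that turned to -0.09 among members averaging at least 5 FPKM. The medians of the members' counting bounds, combined, gave -0.30 to 0.21 around the difference of 0.04. These bounds reflect the interval of a typical gene and not the error of a median over genes. With 1 library per group, the difference between the subunits was not tested. Summed over members, the MRPL genes held 21981 (Control) and 19771 fragments (AG), a ratio of 0.983 after division by the library totals (0.964 to 1.002), and the MRPS genes 11482 and 10505, a ratio of 1.00 (0.974 to 1.03). Abundant genes weigh most in these sums. Placed by structure instead of by name, with MRPS18A and MRPS30 in the large subunit where their proteins sit and MRPS36, a component of the 2-oxoglutarate dehydrogenase complex, left out, the medians were 0.00 (21 genes) and -0.04 (14 genes).

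The inner and outer membrane machines could be compared on few genes. The median log2 ratio was -0.07 for the 7 TIMM genes, of which 1 was above 0 (43.2% of all expressed genes were). It was 0.13 for the 2 TOMM genes, both above 0, a difference of -0.20. Bounds built in the same way as for the subunits ran from -0.40 to 0.01, and the difference was not tested. Without members that have a named pseudogene or near-identical copy, TOMM40L is the only TOMM gene and the difference was -0.34, and with TOMM20L and the other low members kept it was -0.33. The summed TIMM fragments gave a ratio of 0.927 (0.891 to 0.964) and the summed TOMM fragments 1.04 (0.981 to 1.11), both for counting error only. The TIMM median and sum include TIMMDC1, which acts in complex I assembly. It holds 1831 of 5435 TIMM fragments in Control and 1565 of 4610 in AG, and neither value was recomputed without it. TIMM50 (ENSG00000105197, chr19:39480412-39493785, plus strand) was the TIMM gene with an interval below 1, at 12.6 and 10.5 FPKM on 1468 and 1124 fragments, a ratio of 0.837 (0.774 to 0.905). TIMM23B, of the same translocase, had a ratio of 0.773 (0.543 to 1.10). The 4 small TIM chaperones had a median of -0.01, from -0.07 for TIMM8B to 0.08 for TIMM10B. TOMM40L (ENSG00000158882, chr1:161225939-161230744, plus strand) had an interval above 1, with a ratio of 1.21 (1.05 to 1.39) on 388 and 430 fragments, but on its smallest pair, 194 and 215, the interval was 0.993 to 1.48 and included 1. TOMM22 had a ratio of 1.01 (0.938 to 1.08).

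Other genes of these pathways are given for context, from lists fixed with earlier results of these data known. No expressed member of the 11 lists was 1.5-fold higher (3.60% of all expressed genes were) or lower (3.33%). Of the 4442 expressed protein-coding genes, 109 were higher and 59 lower. Counts above or below 0 in these short lists were not tested. Of all 5528 expressed genes, 2386 were above 0 and 3142 below. The mitochondrial ribosome proteins that carry other symbols were level, with DAP3 at 39.8 and 40.6 FPKM, AURKAIP1 at 47.8 and 47.1 and PTCD3 at 15.02 and 15.07 (median 0.00). Of 11 expressed mitoribosome assembly factors, from a list of 23, 10 were below 0 (median -0.11), with a summed fragment ratio of 0.931 (0.905 to 0.957). ERAL1, a GTPase that binds the small subunit RNA, had the lowest ratio of them, at 21.7 and 19.1 FPKM, and METTL17 was the exception at 17.0 and 17.1. Of 7 expressed translation factors and their partners, from a list of 16, 5 were above 0 (median 0.08), led by LRPPRC, which stabilises mitochondrial mRNAs, at 16.05 and 17.98 FPKM, with OXA1L, the insertase of the inner membrane, the most abundant at 46.8 and 48.0. C12orf65 had the lowest ratio, with 3.48 and 3.12 FPKM (log2 ratio -0.12).

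**Figure D5:**
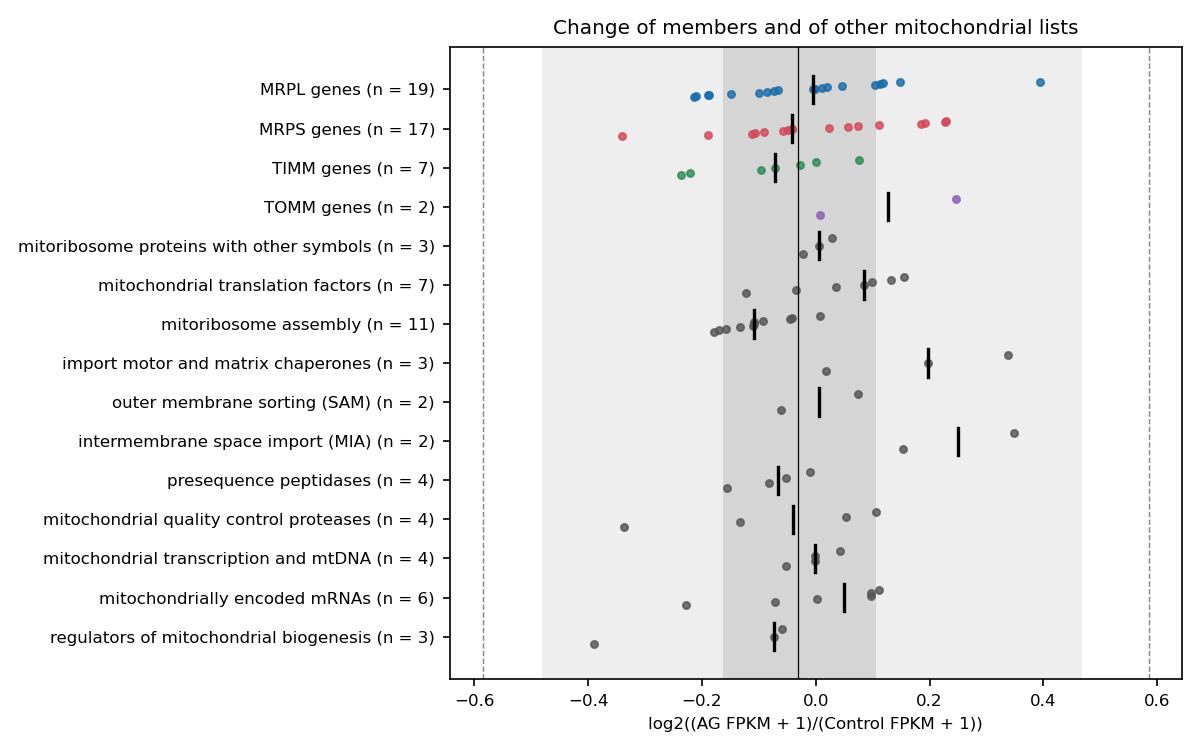
log2((AG FPKM + 1)/(Control FPKM + 1)) on the x axis for each expressed gene (points) and the list median (black bar), for the 4 member families and 11 other mitochondrial lists. Light and dark grey bands span the 5th to 95th percentiles (-0.48 to 0.47) and the quartiles (-0.16 to 0.10) of all 5528 expressed genes, the thin line is their median (-0.03), and no point reaches the dashed lines at 1.5-fold.

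Among the partners of the import machines, the highest ratios were those of a co-chaperone and an oxidoreductase. GRPEL1, the nucleotide exchange factor of the matrix import motor, had 14.7 (Control) and 18.9 FPKM (AG), a ratio of 1.28 (1.18 to 1.40), and its paralogue GRPEL2 had 7.45 and 8.70, a ratio of 1.17 (1.04 to 1.32). DNAJC15, also of the motor, had 4.35 and 4.43 (median 0.20, 3 expressed of a list of 9). CHCHD4, which oxidises cysteine-rich proteins as they enter the intermembrane space, had 15.2 and 19.6, a ratio of 1.29 (1.13 to 1.47), and its partner GFER had 2.05 and 2.39 (median 0.25, 2 expressed of a list of 3). All 4 expressed presequence peptidases were below 0 (median -0.07), with PMPCB at 12.9 and 11.5, PMPCA, the most abundant, at 26.7 and 25.2 and XPNPEP3 nearest to 0 at 3.51 and 3.48. The sorting complex of the outer membrane was near 0 (median 0.01), with SAMM50 at 8.20 and 7.82 and MTX3 at 8.21 and 8.70.

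The mRNAs that the mitochondrial ribosome translates also lay between the 5th and 95th percentiles of all expressed genes. So did the expressed genes of the lists for mitochondrial transcription and DNA, quality control and biogenesis. The 6 listed mitochondrial mRNAs had a median log2 ratio of 0.05, with MT-CO1, a subunit of cytochrome oxidase, at 8009 and 8562 FPKM, MT-ND6 the highest ratio at 1205 and 1301, and MT-ATP8 the lowest at 21.1 and 17.9. The 4 genes of mitochondrial transcription and DNA had a median of 0.00, with TFB2M at 30.8 and 30.7 FPKM, TWNK at 11.9 and 11.5 and MTERF1 at 3.94 and 4.09. Of 4 quality control proteases, AFG3L2 had 14.2 and 15.4, OMA1 had 4.11 and 3.04 and YME1L1, the most abundant, had 30.2 and 31.4 (median -0.04). All 3 expressed regulators of mitochondrial biogenesis were below 0 (median -0.07), with NRF1 at 6.92 and 6.60 FPKM and MYC at 48.5 and 36.8.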

How the data were processed

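RNA-seq values of 2 libraries, 1 Control and 1 AG, were used. The authors deposited FPKM per gene, and per the submitters' processing notes Trimmomatic, HISAT2, Cufflinks and HTSeq were used with hg38, with no version given. No source used here gives the annotation release, strand setting or filters. Poly(A) RNA libraries were made with a stranded kit, per the labels' protocols. No zeros are listed, so a gene without a value was not set to 0.

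IDs were matched to GENCODE 29 (97.1% of 16145 matched). Library totals came from the FPKM of genes with 1 transcript, where 88.4% (Control) and 88.1% (AG) of values were whole fragments within 0.01. Each gene's fragment pair was the one whole in both libraries, within 0.001, at the length nearest the annotated one. This length was within 5% of the annotated one for 38 of 48 members. Fragments are not independent molecules, so intervals cover counting error only. Genes averaging at least 1 FPKM were compared, after adding a pseudocount of 1 FPKM. With 1 library per group no test or count model was run. The steps were also run on simulated counts. There the search for fragment pairs was given the true length, so the effect of a wrong annotated length was not tested.

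The members, lists and alternatives were chosen with earlier results of these data known. Members were named with values where highest or lowest in level or change in their family, and all import members were named. Members named for a counting interval without 1, a shared promoter or the effect of gene length were chosen after their values were seen. Of other lists, the most abundant gene and those with the largest and smallest ratio were named. Promoter sequences are from RefSeq (GRCh38.p14). The work was done in Python 3.11.15 with pandas 2.3.3 and numpy 2.4.6 for tables, scipy 1.17.1 for intervals and matplotlib 3.10.9 for plots.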

Additional observations from a re-analysis of the deposited data

Results flagged for a closer look

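MRPS18B, TIMM17B and MRPS24 had a value in AG only. Such listing was common, since 10548 of all 16145 IDs had a value in both libraries. MRPS18B, a small subunit protein, had 9.62 FPKM in AG. TIMM17B, a subunit of the TIM23 channel, had 11.98 FPKM in AG, which is 456 fragments at its annotated length. MRPS24 had 0.103 FPKM in AG, which is only 4.01 fragments at its annotated length. Control holds no value for these genes rather than a value of 0, so no difference was computed.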

How the results depend on the processing

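No member reached 1.5-fold in either direction with a pseudocount of 0.1 or 5 FPKM, without a filter on low values, among members averaging at least 5 FPKM, after scaling to the same total or by the median of ratios, or without members that have a named pseudogene or near-identical copy. With a threshold of 25% above the lower value, after adding 1 FPKM, there was 1 higher member, MRPL41 (8.70% of expressed genes were higher), and 1 lower, MRPS6 (9.80%), and at 2-fold 0 and 0. The difference of the MRPL and MRPS medians changed sign, from 0.04 to -0.09 among members averaging at least 5 FPKM and to -0.01 without members with copies. The cause was not tested. The TIMM minus TOMM difference ran from -0.34, where TOMM22 is left out for its pseudogenes, to -0.16 with a pseudocount of 5 FPKM. Over pseudocounts and scalings, 4 of 45 members changed sign, none of them above 0.03 in size. The gene length used for levels, the smallest fragment pairs and the ratio with no pseudocount were chosen after seeing the data. Counting error limits the 6 members with under 100 fragments in a library most. No paired analysis was possible because each group has 1 library.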
